A study of Canis lupus familiaris with 60 samples.

Results

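S100A8, CXCR2 and CCR3 are genes by which granulocytes are commonly followed in inflamed tissue, and their transcripts were measured here in skin of Beagle dogs after a patch test with house dust mite. The genes were chosen by name, and a probe was taken when its identifier on the array was a dog RefSeq transcript of one of them. This gave 3 probes of the 60068 on the array that are not controls, 1 probe and 1 spot for each gene, and 3 of the 1066 genes that could be named. The identifiers were NM_001146144 for S100A8, NM_001003151 for CXCR2 and NM_001005261 for CCR3. In the RefSeq gene table used for names, S100A8 lies next to S100A12, CXCR2 next to CXCR1 and CCR3 next to CCR1. That table is of another genome assembly than the array design, so no coordinates are given, and the place of a probe within its transcript is not given in the sources used here.

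Neutrophils and eosinophils are granulocytes that leave the blood through activated endothelium and follow chemokines into the skin. Neutrophils carry CXCR2, the receptor for CXCL8 and related chemokines, and their cytoplasm is rich in S100A8, a calcium-binding protein that pairs with S100A9 to form calprotectin. Eosinophils carry CCR3, the receptor for eotaxins and for chemokines such as CCL5, CCL7 and CCL13, and allergic skin is a tissue that they are known to enter. S100A8 is also made by monocytes and by stressed keratinocytes, so its level in whole skin is not a count of neutrophils.

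The 12 dogs were 2 to 3 years old and were kept and fed alike. The 6 sensitized dogs, 4 males and 2 females, had earlier been sensitized to Dermatophagoides farinae through the skin, and they had specific IgE and positive intradermal tests. The 6 nonsensitized dogs, 2 males and 4 females, had no such history, so the proportion of the sexes differed between the groups. From each dog, 8 mm punch biopsies of the clipped lateral chest were taken under 2% lidocaine: untreated skin at 0 hr, and, at 6 hr and again at 24 hr, a site under a patch with 75 mg of mite paste (allergen) and a site under 50 µl of saline. All dogs thus carried both patches and bandages, and the saline site is the control of the patch itself. With dog group and site, the arrays form 10 groups of 6, and each array is a separate biopsy.

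Of the 60 arrays, 59 are used here. The exception, specimen 14, is from allergen-treated skin of dog 2839 at 24 hr, so that 5 sensitized dogs remain at that site. The authors excluded it too, for poor RNA integrity, lower total signal and poor correlation with the other samples. Its median processed signal was 70.97, with 67.65% of its spots well above background. The median processed signal of an array was 81.7 to 146.12, and a share of 68.85% to 80.15% of its spots stood well above background. The arrays were on 8 slides. Untreated arrays were on slides 7 and 8, with 1 on slide 6. Those of 6 hr were on slides 4 to 6, with 1 on slide 7 and 2 on slide 8. Those of 24 hr were on slides 1 to 3, with 1 further array on slide 8. Most of a difference between time points, 6 hr against untreated skin included, thus cannot be told apart from a difference between slides. Allergen and saline sites of the same time point mostly shared slides. Sensitized and nonsensitized dogs shared them only in part, and at 6 hr allergen sites they shared none. In keeping with skin as the labelled tissue, 4 keratinocyte markers (DSG1, KRT1, KRT71 and TGM1) were measured on the arrays, with summed signals of 69800 to 234000. Skeletal muscle markers, of which 2 passed the filter, were bright as well, with summed signals of 186000 to 270000.

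Levels are given as the scaled log2 signal, that is the log2 of the processed signal after scaling each array to its 75th percentile. On this scale, the lowest signal that counted as well above background differed between arrays from 2.88 to 4.37, with a median of 3.78. Differences are log2 differences with their standard error from limma, fitted jointly to the 10 groups after variance stabilization of the signal. A difference was called when its p, adjusted after Benjamini and Hochberg over 45972 probes, was below 0.05 and the change was at least 1.5-fold. Variance stabilization compresses the differences of dim probes, so for CXCR2 and CCR3 the difference of the mean scaled log2 signals is given as well. Levels of different probes cannot be compared with each other, and only changes are compared between genes.

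The 3 genes differed in brightness, in detection and in the number of calls. S100A8 was bright, with a median level of 14.19 over the 59 arrays, and was well above background on all 59. It was called in 9 of 23 comparisons. CXCR2 was dim and nearly flat: its median level of 4.65 was 0.94 above the lowest usable signal of the same array, it was well above background on 54 arrays, and it was called in 0 of 23 comparisons by limma, with 2 at an unadjusted p below 0.05. CCR3 lay at the limit of detection, with a median level of 3.53, which is 0.19 under that lowest usable signal, and with 20 of 59 arrays well above background. It was called in 3 of 23 comparisons, with 7 at an unadjusted p below 0.05, and it passed the filter on dim probes only through the 24 hr allergen sites of sensitized dogs, the group where it was highest.

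**Figure D1:**
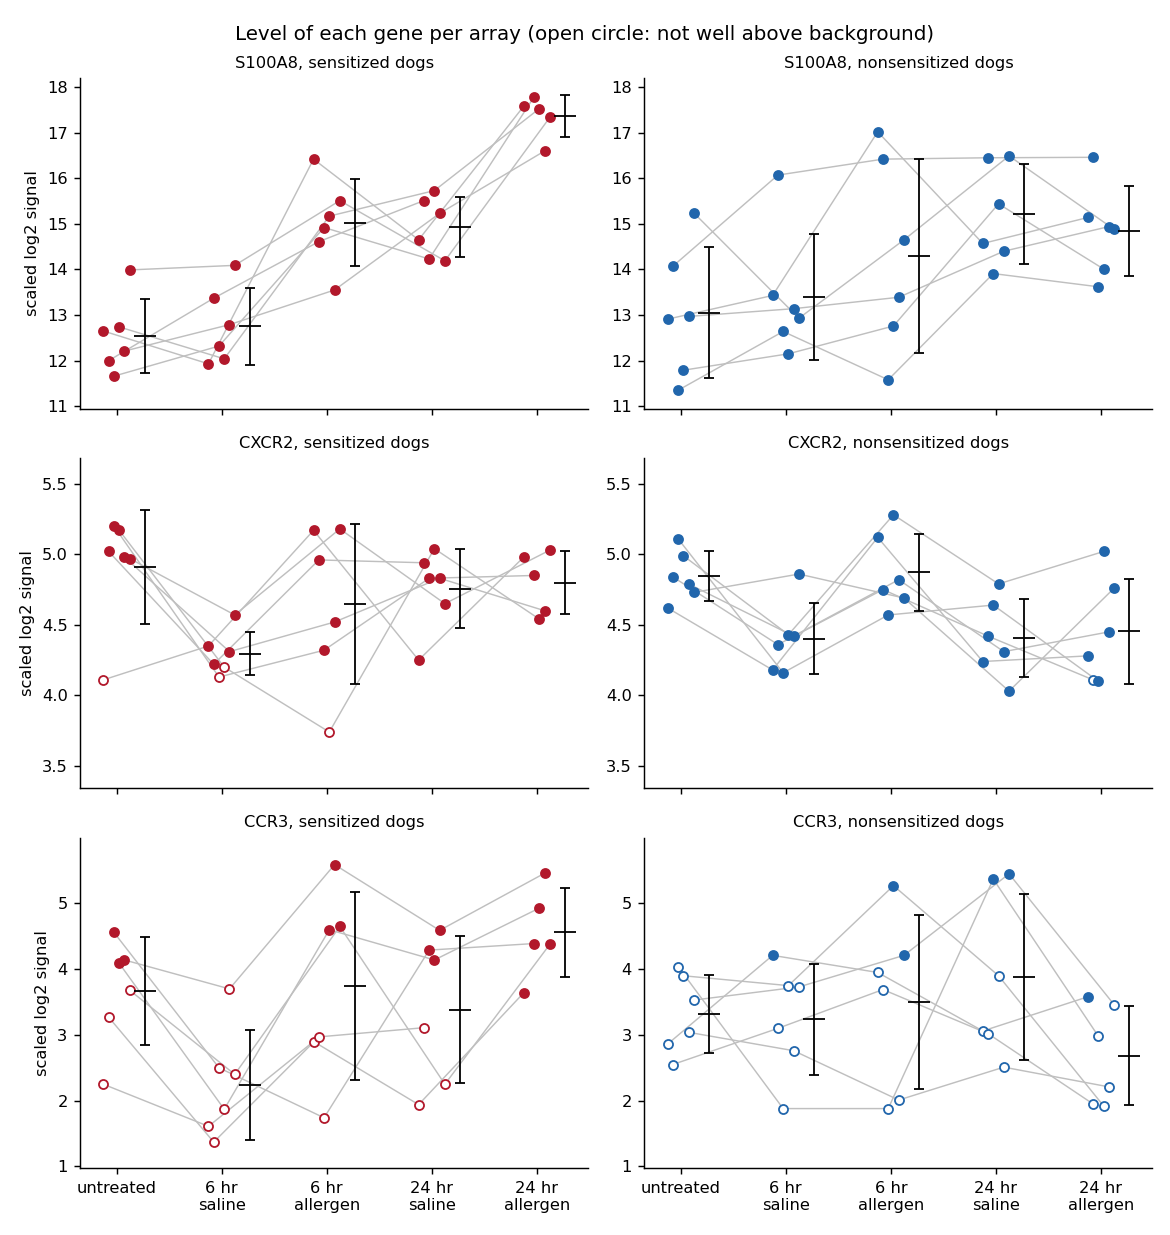
Scaled log2 signal of S100A8, CXCR2 and CCR3 on each of the 59 arrays, by site, in sensitized (left, red) and nonsensitized dogs (right, blue). Grey lines join the arrays of a dog, open circles are arrays on which the probe was not well above background, and black bars are the mean ± SD of a group. The y axes differ between genes; the 5 sensitized dogs at 24 hr allergen sites lie between 16.6 and 17.79 for S100A8.

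In untreated skin, the S100A8 level of the sensitized dogs ranged from 11.66 to 13.99 with a median of 12.43. In the nonsensitized dogs it ranged from 11.35 to 15.24 with a median of 12.94. The groups overlapped over nearly their whole range, and the spread was wider in the nonsensitized dogs, of which dog 2847 was highest. The sensitized minus nonsensitized difference was -0.51 ± 0.66 (limma, adjusted p = 1.0), and 0 of the 3 genes were called, against 0.00218% of all probes in that comparison.

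At 6 hr, S100A8 was high at allergen sites of sensitized dogs and not at their saline sites. Under saline its level ranged from 11.93 to 14.09 with a median of 12.55, close to untreated skin. Under allergen it ranged from 13.55 to 16.42 with a median of 15.05. The groups overlapped only in that the highest saline array, of dog 2855, exceeded the lowest allergen array, of dog 2853. The level was higher under allergen in 6 of 6 dogs, by 0.76 in dog 2853, 1.25 in dog 2839, 1.42 in dog 2855, 2.61 in dog 2840, 3.13 in dog 2841 and 4.49 in dog 2838. The limma difference of 2.28 ± 0.66 (4.84-fold) missed the limit, with an adjusted p of 0.0992, and 0 of the 3 genes were called in this comparison, in which 0.409% of all probes were. With the dog as a block, which uses the pairing of sites within a dog, the difference was the same and was called (limma, adjusted p = 0.00705, where 0.859% of all probes were called). Within slides the difference was 2.16 on slide 5 and 2.83 on slide 6.

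S100A8 varied most between dogs at the 6 hr allergen sites of nonsensitized dogs, with an SD of 2.13. At 6 hr its level in these dogs ranged from 12.15 to 16.07 under saline, with a median of 13.04, and from 11.58 to 17.02 under allergen, with a median of 14.02. Dog 2704 had the highest allergen array and dog 2716 the highest saline array, and the groups overlapped almost completely. The level was higher under allergen in 5 of 6 dogs, with changes from -1.06 to 3.59. The difference was 0.89 ± 0.66 (limma, adjusted p = 0.96), and 0 of the 3 genes were called, against 0.0348% of all probes. The difference of the allergen effects between sensitized and nonsensitized dogs (interaction) at 6 hr was 1.39 ± 0.93 (limma, adjusted p = 1.0). No probe was called for it (0%), and exact permutation of dogs between both groups gave p = 0.139 for S100A8.

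At 24 hr, allergen-treated skin of sensitized dogs had an S100A8 level of 16.6 in dog 2853, 17.34 in dog 2855, 17.53 in dog 2841, 17.58 in dog 2838 and 17.79 in dog 2840. At their saline sites it ranged from 14.19 to 15.73 with a median of 14.94. The lowest allergen array was thus above the highest saline array, and the spread of the allergen arrays (SD 0.46, n = 5) was the narrowest of the 10 groups. The level was higher under allergen in 5 of 5 dogs, by 1.37 to 3.56. The limma difference was 2.44 ± 0.69 (5.42-fold, adjusted p = 0.0882), and 0 of the 3 genes were called, against 0.27% of all probes. With the dog as a block it was 2.45 and was called (limma, adjusted p = 0.00292, where 1.03% of all probes were called). It was also called, at 2.44, when the 24 hr arrays were fitted alone (limma, adjusted p = 0.0383, where 0.146% of all probes were called). Within slides it was 2.64 on slide 2 (1 array against 2) and 2.12 on slide 3 (3 against 3).

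At 24 hr the nonsensitized dogs had similar S100A8 levels under both patches. Its level ranged from 13.91 to 16.49 under saline, with a median of 15.0, and from 13.62 to 16.46 under allergen, with a median of 14.91. The ranges were nearly the same, and the level was higher under allergen in 3 of 6 dogs. The limma difference was -0.39 ± 0.66 (adjusted p = 0.959), and 0 of the 3 genes were called, against 0.74% of all probes. On slide 1 it was -0.83 (4 arrays against 3), on slide 2 it was 0.89 (1 against 2) and on slide 3 it was -1.43 (1 against 1).

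The allergen effect on S100A8 at 24 hr therefore differed between the groups of dogs. The sensitized dogs had allergen minus saline changes of 1.36 to 3.51 and the nonsensitized dogs of -1.59 to 0.57 on the variance-stabilized scale, with no overlap. The mean changes differed by 2.94, with an exact two-sided permutation p of 0.00216 over 462 splits of the dogs, the smallest that 5 against 6 dogs allow. In limma the interaction was 2.82 ± 0.95 (7.08-fold, adjusted p = 0.119) and was not called, as for the other 2 genes, while 0.972% of all probes were. With the dog as a block it was 2.84 and was called (limma, adjusted p = 0.00987, where 3.46% of all probes were called), and it was called at 2.82 when the 24 hr arrays were fitted alone (limma, adjusted p = 0.0458, where 0.768% of all probes were called). The comparison of the 24 hr allergen sites themselves was called without a block: S100A8 was higher in the sensitized dogs by 2.56 ± 0.69 (5.88-fold, limma adjusted p = 0.00641), and the groups did not overlap. In this comparison 6.73% of all probes were called. CCR3 was called as well, but it had passed the filter only through one of the groups compared, so its call adds nothing to that of S100A8. On slide 2 the S100A8 difference was 2.39 (1 against 1 array), and on slide 3 it was 3.2 (3 arrays against 1). The other 4 nonsensitized arrays of that site were on slide 1, which held no sensitized array of that site. At the 24 hr saline sites the difference was -0.27 ± 0.66 (limma, adjusted p = 0.858), and 0 of the 3 genes were called, against 2.32% of all probes. At the 6 hr sites, 0 of the 3 genes and 0% of all probes were called between sensitized and nonsensitized dogs under either patch, with S100A8 differences of 0.74 ± 0.66 under allergen and -0.64 ± 0.66 under saline.

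**Figure D2:**
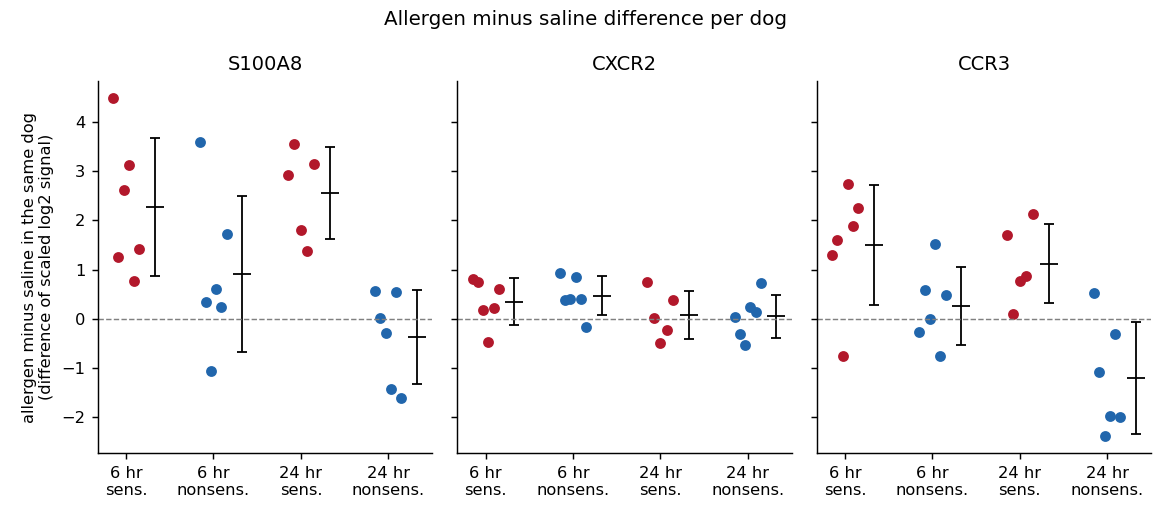
Allergen minus saline difference of the scaled log2 signal in each dog at 6 hr and 24 hr for the 3 genes, in sensitized (red) and nonsensitized dogs (blue), with the mean ± SD of the dogs in black. At 24 hr the 5 sensitized dogs have S100A8 changes of 1.37 to 3.56 and the 6 nonsensitized dogs of -1.61 to 0.57, and for CCR3 5 of 6 nonsensitized dogs lie below 0. Most CCR3 arrays of the nonsensitized dogs were not well above background.

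S100A8 also rose with time under saline, in both groups of dogs. From 6 hr to 24 hr under saline it rose by 2.17 ± 0.66 in the sensitized dogs (limma, adjusted p = 0.027) and by 1.79 ± 0.66 in the nonsensitized dogs (adjusted p = 0.031), and it was higher at 24 hr in 6 of 6 dogs of each group. In these comparisons 1 of the 3 genes was called, against 2.42% and 9.04% of all probes. Relative to untreated skin, the 24 hr saline sites were higher by 2.38 ± 0.66 in the sensitized (adjusted p = 0.00434) and by 2.14 ± 0.66 in the nonsensitized dogs (adjusted p = 0.00533), again in 6 of 6 dogs of each. In the former, 1 of the 3 genes was called against 8.71% of all probes, and in the latter 2 were, against 21.5%. At 6 hr under saline, S100A8 differed from untreated skin by 0.21 ± 0.66 in the sensitized and by 0.35 ± 0.66 in the nonsensitized dogs (adjusted p = 0.874 and 0.786), and 0 of the 3 genes were called in either (2.33% and 1.92% of all probes).

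Under allergen, S100A8 rose in 2 steps in the sensitized dogs. It was 2.49 ± 0.66 above untreated skin at 6 hr (5.6-fold, limma adjusted p = 0.00692), where 1 of the 3 genes was called against 3.58% of all probes. It rose by a further 2.33 ± 0.69 from 6 hr to 24 hr (adjusted p = 0.0295), where 1 of the 3 was called against 1.96%, and the arrays of the 2 times did not overlap. At 24 hr it was 4.82 ± 0.69 above untreated skin (28.19-fold, adjusted p = 4.93e-07), the largest of the 23 differences, with 5 of 5 dogs higher by 3.35 to 6.13. Here 13% of all probes were called, and CCR3 with them, again in the group through which it passed the filter. In the nonsensitized dogs, S100A8 was 1.24 ± 0.66 above untreated skin at 6 hr (adjusted p = 0.253) and changed by 0.52 ± 0.66 from 6 hr to 24 hr (adjusted p = 0.599). In those comparisons 0 of the 3 genes were called, against 1.47% and 7.46% of all probes. At 24 hr it was 1.75 ± 0.66 above untreated skin (3.37-fold, adjusted p = 0.0258) and higher in 5 of 6 dogs, and 1 of the 3 genes was called against 15.6% of all probes.

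Time points and slides largely coincide, as given above. With the slide as a fixed block, S100A8 was called in 2 of 23 comparisons. These were 24 hr allergen against untreated skin in the sensitized dogs, with 5.24 ± 1.33 (11.9% of all probes called), and sensitized against nonsensitized dogs at 24 hr allergen sites, with 2.77 ± 0.89 (3.7% called). On slide 8, the only one with arrays of both sites, 1 24 hr allergen array exceeded the mean of 3 untreated arrays by 5.51. The rise from 6 hr to 24 hr had larger values with this block, 3.25 ± 1.51 under allergen and 3.32 ± 1.73 under saline in the sensitized dogs, and was no longer called, where 6.33% and 8.17% of all probes were. With the scan session as a block, 4 of the 9 calls of S100A8 held, and those of 24 hr saline sites against untreated skin in both groups of dogs, of 6 hr allergen sites in the sensitized and of 24 hr allergen sites in the nonsensitized dogs were lost, with the rise from 6 hr to 24 hr under saline in the nonsensitized dogs.

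Ordered by mean, the S100A8 level was highest at 24 hr allergen sites of sensitized dogs (17.37 ± 0.46, SD, n = 5) and lowest in their untreated skin (12.54 ± 0.82, n = 6). The first place was 2.16 above the second, the 24 hr saline sites of nonsensitized dogs (15.21 ± 1.09), and this gap was wider than the larger SD of both. The third to the sixth place were the 6 hr allergen and 24 hr saline sites of sensitized dogs (15.03 ± 0.96 and 14.93 ± 0.66) and the 24 hr and 6 hr allergen sites of nonsensitized dogs (14.84 ± 0.99 and 14.3 ± 2.13). Then came the 6 hr saline sites and untreated skin of nonsensitized dogs (13.39 ± 1.38 and 13.06 ± 1.44) and the 6 hr saline sites of sensitized dogs (12.76 ± 0.84). From the second place down, no neighbours in this order differed by more than the larger SD of the pair. In a biopsy, a change in the number of cells that make S100A8 and a change in S100A8 RNA per cell cannot be told apart. The array of specimen 14, from RNA of poor integrity, is in none of these values. Its unscaled S100A8 signal of 277283.9 was higher than the 132217.5 to 245993.3 of the other 5 dogs at that site.

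**Figure D3:**
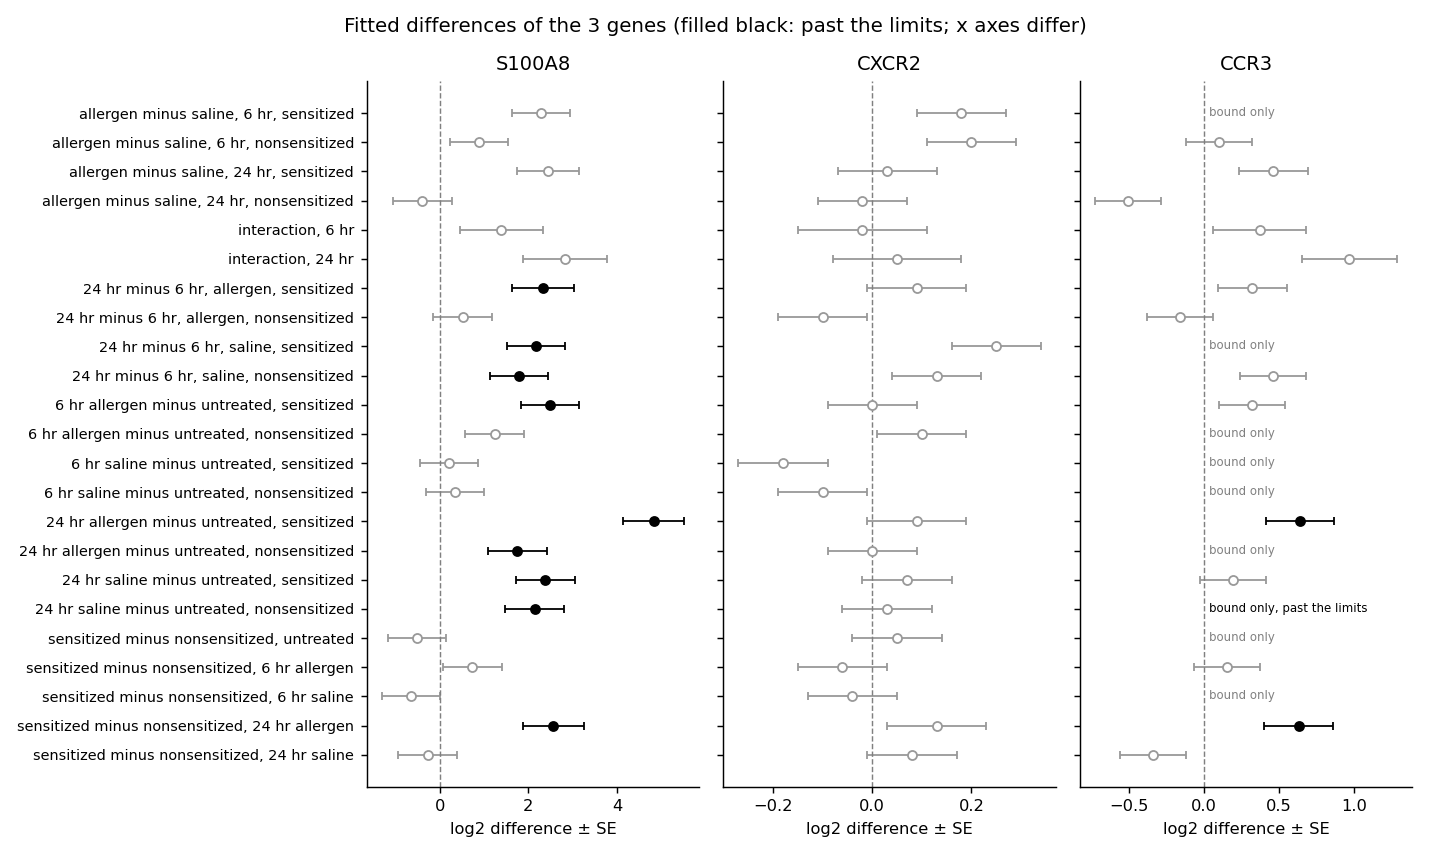
Log2 difference ± SE from the joint limma fit for S100A8, CXCR2 and CCR3 in the 23 comparisons. Filled black points passed both limits, and the x axes differ between genes. For CCR3, comparisons with a group that was well above background on no array are marked and not drawn, since only a bound is known there; S100A8 reaches 4.82 and no CXCR2 difference exceeds 0.25.

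CXCR2, the chemokine receptor of neutrophils, kept a nearly constant low level. In the sensitized dogs its median was 5.0 in untreated skin (4.11 to 5.2). Under saline it was 4.26 at 6 hr (4.13 to 4.57) and 4.83 at 24 hr (4.25 to 5.04), and under allergen it was 4.74 at 6 hr (3.74 to 5.18). At their 24 hr allergen sites it was 4.54 in dog 2841, 4.6 in dog 2853, 4.85 in dog 2840, 4.98 in dog 2838 and 5.03 in dog 2855. For the nonsensitized dogs the median was 4.81 in untreated skin (4.62 to 5.11). Under saline it was 4.39 at 6 hr (4.16 to 4.86) and 4.37 at 24 hr (4.03 to 4.79), and under allergen 4.78 at 6 hr (4.57 to 5.28) and 4.36 at 24 hr (4.1 to 5.02). Neighbouring groups overlapped, though untreated skin of nonsensitized dogs lay above the 6 hr saline sites of sensitized dogs on all arrays. The gaps between neighbours in the order of means were 0.0 to 0.2, less than the larger SD in all 9 pairs. The means ran from 4.91 ± 0.4 in untreated skin of sensitized dogs to 4.3 ± 0.15 (SD, n = 6) at their 6 hr saline sites.

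No allergen effect on CXCR2 was called. Allergen minus saline was 0.18 ± 0.09 in the sensitized dogs at 6 hr (limma, adjusted p = 0.528, higher in 5 of 6 dogs) and 0.2 ± 0.09 in the nonsensitized dogs (adjusted p = 0.911, 5 of 6 dogs). The mean scaled log2 signals differed by 0.35 and 0.47. At 24 hr it was 0.03 ± 0.1 and -0.02 ± 0.09 (adjusted p = 0.984 and 0.993), with 0.05 between the mean scaled log2 signals in either group. The interaction was -0.02 ± 0.13 at 6 hr and 0.05 ± 0.13 at 24 hr (limma, adjusted p = 1.0 and 0.946), and exact permutation over the dogs gave p = 0.905 and 0.595. Over the 23 comparisons, the differences ranged from -0.18 to 0.25 in the fit, and the smallest adjusted p of limma was 0.0745, for 24 hr against 6 hr under saline in the sensitized dogs (0.25 ± 0.09). Differences of mean scaled log2 signals ranged from -0.61 to 0.47. With scaling to the 75th percentile in place of variance stabilization, 1 comparison was called, 6 hr saline against untreated skin in the sensitized dogs, with -0.61 (7.35% of all probes called). For a probe this dim the scales can differ in sign: at 24 hr saline sites of nonsensitized dogs, the scaled level of CXCR2 was below that of untreated skin in 6 of 6 dogs, with a difference of -0.44, where the fit gave 0.03 ± 0.09 (limma, adjusted p = 0.831).

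CCR3, the eotaxin receptor of eosinophils, was detected on few arrays. In sensitized dogs it was well above background on 3 of 6 arrays of untreated skin, 0 of 6 at 6 hr saline, 3 of 6 at 6 hr allergen, 3 of 6 at 24 hr saline and 5 of 5 at 24 hr allergen sites. In nonsensitized dogs these counts were 0 of 6, 1 of 6, 2 of 6, 2 of 6 and 1 of 6. The 24 hr allergen sites of sensitized dogs were the only group in which all arrays detected it. Since CCR3 is among the probes tested only through that group, its count there of 5 of 5 against 1 of 6 in the nonsensitized dogs is given without a test. The lowest usable signal also differs between arrays. Of the 6 nonsensitized arrays, 4 were on slide 1, which held no sensitized array of that site, so for these the dog group and the slide cannot be told apart. In untreated skin, 3 of 6 against 0 of 6 gave an exact p of 0.182 (Fisher's exact test). The 3 arrays that detected it were all on slide 8, and 5 of the 6 nonsensitized arrays were on slide 7. Much of that contrast thus cannot be told apart from a difference between slides. Within dogs, CCR3 was gained from saline to allergen sites in 3 sensitized dogs and lost in 0 at 6 hr (exact sign test p = 0.25), and in 2 and 0 at 24 hr, given without a test.

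**Figure D4:**
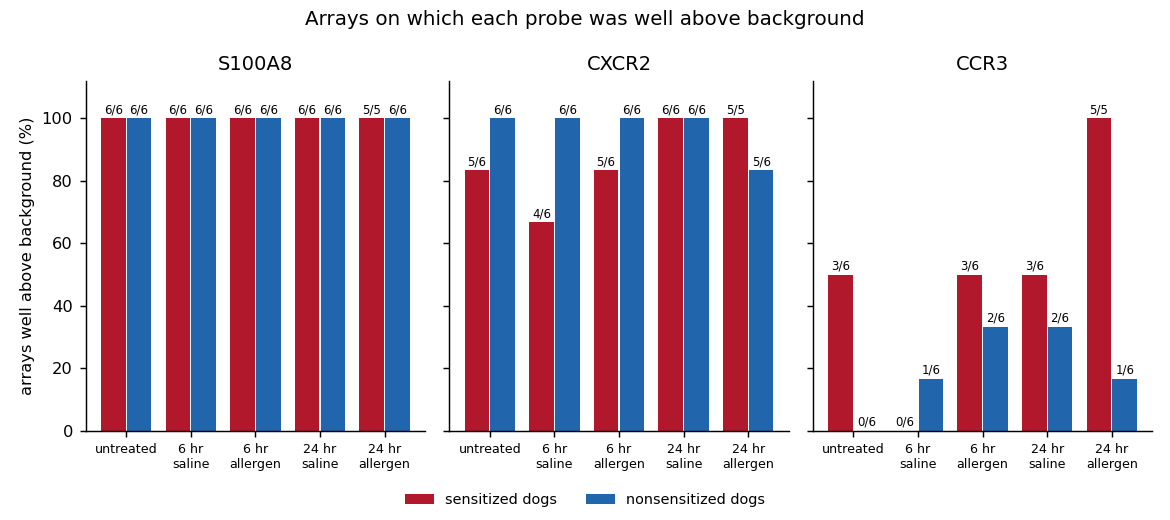
Percentage of arrays on which the probe of each gene was well above background, by site, in sensitized (red) and nonsensitized dogs (blue), with the number of arrays above each bar. CCR3 reaches 5 of 5 arrays at 24 hr allergen sites of sensitized dogs, against 1 of 6 in nonsensitized dogs. Of these 6 nonsensitized arrays, 4 were on slide 1, which held no sensitized array of that site.

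Among sensitized dogs, the CCR3 level under allergen at 24 hr was 3.64 in dog 2838, 4.38 in dog 2855, 4.39 in dog 2840, 4.93 in dog 2841 and 5.46 in dog 2853. At the same sites of nonsensitized dogs it ranged from 1.92 to 3.58 with a median of 2.6, so that the groups did not overlap, though the lowest sensitized and the highest nonsensitized array lay side by side. The difference was 0.63 ± 0.23 in the fit and 1.88 between the mean scaled log2 signals, given without a test, since CCR3 was kept only through the sensitized group. With no filter on dim probes it was 1.54 and was called (limma, adjusted p = 0.0272, where 7.71% of all probes were called). Only 1 of the 6 nonsensitized arrays was well above background, so the size of this difference rests on background values. Under the filter, the call was lost with the slide as a fixed block (0.73, limma adjusted p = 0.0815) and without some single dogs, as given below. At 24 hr saline sites, the level ranged from 1.94 to 4.59 in sensitized dogs, with a median of 3.63, and from 2.51 to 5.45 in nonsensitized dogs, with a median of 3.48. These groups overlapped, and the highest arrays were those of dog 2853 and dog 2847.

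At 24 hr the CCR3 values were higher under allergen than under saline in 5 of 5 sensitized dogs and lower in 5 of 6 nonsensitized dogs. In the former the change was 0.1 in dog 2840, 0.78 in dog 2841, 0.87 in dog 2853, 1.71 in dog 2838 and 2.13 in dog 2855. In the latter it ranged from -2.39 to 0.52 with a median of -1.52, so that the changes of both groups overlapped, and their means differed by 0.93 on the variance-stabilized scale. In the fit the sensitized difference was 0.46 ± 0.23, given without a test, since CCR3 was kept only through those allergen sites. With no filter on dim probes it was 0.94 and was not called (limma, adjusted p = 0.599). The nonsensitized difference was -0.51 ± 0.22 and was not called (limma, adjusted p = 0.298). The interaction was 0.97 ± 0.32 in the fit, 2.37 on the scaled log2 signal and 0.89 with the dog as a block. No test or call is read from these values, since CCR3 was kept only through the sensitized allergen sites in this contrast. With no filter on dim probes the interaction was 1.97 and was not called (limma, adjusted p = 0.192). On slides 1, 2 and 3 the nonsensitized difference was -0.44, -0.39 and -0.73, and on slides 2 and 3 the sensitized difference was 0.68 and 0.4. Of the 24 hr arrays behind these values, CCR3 was well above background on 5 and 3 under allergen and saline in the sensitized dogs and on 1 and 2 in the nonsensitized dogs. In nonsensitized dogs 2716, 2802 and 2845 it was so on neither array, and in sensitized dogs 2838 and 2855 not under saline. The direction and size of such changes rest on background values.

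At 6 hr and in untreated skin, CCR3 could be compared only in part. In sensitized dogs its level was 1.37 to 3.7 at 6 hr saline sites (median 2.13), where no array was well above background, and 1.74 to 5.59 at 6 hr allergen sites (median 3.79). It was higher under allergen in 5 of 6 dogs (limma, adjusted p = 0.455), but the mean of the allergen sites was not above the lowest signal usable at the saline sites, so no fold is given. In nonsensitized dogs it was 1.88 to 4.21 at 6 hr saline (median 3.41) and 1.88 to 5.27 at 6 hr allergen sites (median 3.82), and 3 of 6 dogs were higher under allergen (0.1 ± 0.22, limma adjusted p = 0.988). In untreated skin the level was 2.25 to 4.56 in sensitized (median 3.88) and 2.55 to 4.04 in nonsensitized dogs (median 3.28), with overlapping groups.

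Against untreated skin, CCR3 was called in 2 comparisons. At 24 hr allergen sites of sensitized dogs, the group through which it was kept, it was higher by 0.64 ± 0.23 and in 4 of 5 dogs, with overlapping groups and 0.9 between the mean scaled log2 signals, again given without a test. With no filter on dim probes this difference was 0.9 and was not called (limma, adjusted p = 0.16), and with the dog as a block it was 0.57, less than 1.5-fold. At 24 hr saline sites of nonsensitized dogs it was called with an adjusted p of 0.00788 and was higher in 4 of 6 dogs. Since the untreated skin of these dogs was well above background on 0 of 6 arrays, the change there was at least 1.01-fold only, counted from the lowest signal usable on those arrays. In the order of CCR3 means, from 4.56 ± 0.68 (SD, n = 5) at 24 hr allergen sites of sensitized dogs to 2.24 ± 0.84 at their 6 hr saline sites, the gaps between neighbours were 0.07 to 0.67 and were less than the larger SD in all 9 pairs. All 3 CCR3 calls were lost with the slide as a fixed block. Both calls against untreated skin were also lost with scaling to the 75th percentile (limma, adjusted p = 0.221 and 0.415). On the array of specimen 14, from RNA of poor integrity, CCR3 was well above background with an unscaled signal of 23.3, within the 15.7 to 58.5 of the other 5 dogs, and CXCR2 was not.

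Within dogs, the change of S100A8 was set against that of CXCR2 and CCR3. Under allergen relative to saline in the sensitized dogs at 24 hr, the S100A8 change exceeded that of CCR3 by 2.13 ± 1.12 (SD, n = 5) and that of CXCR2 by 2.51 ± 0.82, in 5 of 5 dogs for both. On the scaled log2 signal these gaps were 1.44 ± 1.16 and 2.48 ± 0.72, again in 5 of 5 dogs. These are given without a test, since 5 dogs cannot reach a p below 0.0625 in an exact sign-flip test and CCR3 was kept only through these allergen sites. At 6 hr the S100A8 change exceeded that of CXCR2 by 2.09 ± 1.41 in 6 of 6 dogs (exact sign-flip p = 0.0312, the smallest for 6 dogs). It exceeded that of CCR3 by 1.8 ± 1.62 in 5 of 6 dogs (exact p = 0.0625), and on the scaled log2 signal by 0.77 ± 2.01 in 3 of 6 dogs (exact p = 0.438), where no saline array detected CCR3. From 6 hr to 24 hr under saline, the S100A8 change exceeded that of CXCR2 by 1.92 ± 1.05 in the sensitized and by 1.67 ± 1.43 in the nonsensitized dogs (exact p = 0.0312 for both, 6 of 6 dogs). None of the 48 such comparisons passed the adjustment, and the smallest adjusted p was 0.143 (0.12 on the scaled log2 signal). Unless named as scaled, the values are on the variance-stabilized scale, which holds down the changes of the dim CCR3 and CXCR2.

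Few of the genes by which granulocytes are known could be named on this array. Of 24 neutrophil genes, 5 were matched and all passed the filter. Beside S100A8 and CXCR2 they were ELANE and CAMP, proteins of neutrophil granules, and MMP9, a gelatinase of tertiary granules. In allergen against saline, 0 of the 5 were called in either group at either time, in comparisons in which 0.0348% to 0.74% of all probes were. At 24 hr in the sensitized dogs the median of the 5 was 0.03 (-0.0 over all probes), with MMP9 at 1.21 ± 0.43 (limma, adjusted p = 0.213), ELANE at -0.02 ± 0.13 and CAMP at -0.09 ± 0.1. Against untreated skin, S100A8 and MMP9 rose at 24 hr allergen sites, MMP9 by 1.54 ± 0.43 in the sensitized (adjusted p = 0.0034) and by 1.11 ± 0.41 in the nonsensitized dogs (adjusted p = 0.0216), and the other 3 genes were not called (13% and 15.6% of all probes were). Between sensitized and nonsensitized dogs at 24 hr allergen sites, S100A8 was the 1 gene of the 5 called, against 6.73% of all probes. MMP9 is also made by other cells of inflamed skin. Of the partners and receptors of S100A8, S100A9 was not matched, and TLR4, AGER and CD36 were measured. Against untreated skin, TLR4 rose by 0.71 ± 0.19 and AGER fell by 0.64 (SE 0.15) at 24 hr allergen sites of sensitized dogs (limma, adjusted p = 0.00262 and 0.000749, where 13% of all probes were called). AGER was also called lower at the 24 hr allergen sites of nonsensitized dogs and at the saline sites of both groups at 6 hr and 24 hr, with differences of -1.1 to -0.6. None of the 3 was called in allergen against saline at 24 hr (0.27% and 0.74% of all probes).

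Of 14 eosinophil genes, 3 were matched: CCR3, PTGDR2, a prostaglandin D2 receptor also found on type 2 T cells, and ADGRE1, an adhesion receptor that in several species marks macrophages. None of the granule proteins of eosinophils was among them. In allergen against saline 0 of the 3 were called in any of the 4 comparisons (0.0348% to 0.74% of all probes). PTGDR2 was called lower than untreated skin at all 4 treated sites of sensitized dogs, saline included, with differences of -0.9 to -0.76, and at none in nonsensitized dogs. These calls rested on 1 array: the PTGDR2 signal in untreated skin of dog 2841 was 1480, against 84 to 163 in the other 5 sensitized dogs and 69.7 to 161 on the 53 arrays of all other groups. Without that dog the 4 differences were -0.33 to -0.26, and none was called (limma, adjusted p = 0.0303 to 0.124). At the 24 hr allergen sites ADGRE1 was higher in sensitized than in nonsensitized dogs by 0.53 ± 0.13 (adjusted p = 0.00339), which is less than 1.5-fold.

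Some signals for neutrophils and eosinophils were higher under allergen than under saline at 6 hr in sensitized dogs: 1 of 4 for neutrophils, 2 of 9 for eosinophils and 2 of 3 adhesion molecules were called, where 0.409% of all probes were. Of 4 measured neutrophil attractants and growth factors, IL6 was called against saline (limma, adjusted p = 0.00363). It was well above background on 6 of 6 allergen and 0 of 6 saline arrays, so that it is known only to be at least 8.17-fold higher, counted as for CCR3. It was not well above background on any array of untreated skin either. CXCL8, the main ligand of CXCR2, was not called, with 2.97 ± 0.79 (adjusted p = 0.0659). Both were called against untreated skin (3.58% of all probes), CXCL8 with 2.43 ± 0.79 (adjusted p = 0.0259), while TNF and IL17A were not. Of 9 measured eosinophil attractants and growth factors, CCL8 was called with 2.87 ± 0.42 (adjusted p = 6.69e-05) and CCL13 with 1.2 ± 0.22 (adjusted p = 0.0025). CCL7 stood at 1.35 ± 0.37 (adjusted p = 0.0734). CCL7, CCL8 and CCL13 are known ligands of CCR3, and CCL8 and CCL13 also draw monocytes. Of 3 measured adhesion molecules through which granulocytes leave vessels, SELE rose by 2.46 ± 0.39 and ICAM1 by 1.8 ± 0.28 (adjusted p = 0.000226 for both), and VCAM1 was not called. In the nonsensitized dogs 0 of these 16 genes were called against saline at 6 hr (0.0348% of all probes). Against untreated skin, 8 of the 16 were called at their 6 hr allergen sites, all higher (1.47% of all probes): IL6, CCL7, CCL8, CCL13, CSF2, IL13, ICAM1 and SELE. These 8 were also called in the sensitized dogs, with CXCL8.

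At 24 hr, allergen against saline gave 0 calls among these 16 genes in the sensitized dogs (0.27% of all probes). In the nonsensitized dogs 5 were lower under allergen (0.74%): IL6, CCL8, CCL13, IL33, an alarmin of keratinocytes, and ICAM1. IL6 was at -2.35 ± 0.5 (limma, adjusted p = 0.0054), well above background on 1 of 6 allergen arrays, and CCL8 at -2.18 ± 0.42 (adjusted p = 0.00164). The interaction was called for IL6 (2.72 ± 0.72), CCL13 (1.38 ± 0.32), CCL8 (2.44 ± 0.6) and SELE (2.45 ± 0.56), with adjusted p of 0.0409, 0.0195, 0.0286 and 0.018 (0.972% of all probes). In the nonsensitized dogs S100A8 differed between allergen and saline by -0.39 ± 0.66 at that time. Against untreated skin, 8 of the 9 eosinophil signals rose at 24 hr allergen sites of sensitized dogs (13% of all probes), among them CSF2 by 1.71 ± 0.25 (adjusted p = 7.81e-07) and IL13, which was well above background on 5 of 5 of these arrays and 0 of 6 untreated ones, by at least 5.3-fold (adjusted p = 1.17e-05), and the exception was CCL28 at 0.29 ± 0.14. The rise was not particular to these sites: 6 of the 9 were called at 24 hr saline sites of the sensitized (8.71% of all probes) and of the nonsensitized dogs (21.5%), and 5 of the 9 at 24 hr allergen sites of the nonsensitized dogs (15.6%), IL13 and CSF2 among them each time.

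**Figure D5:**
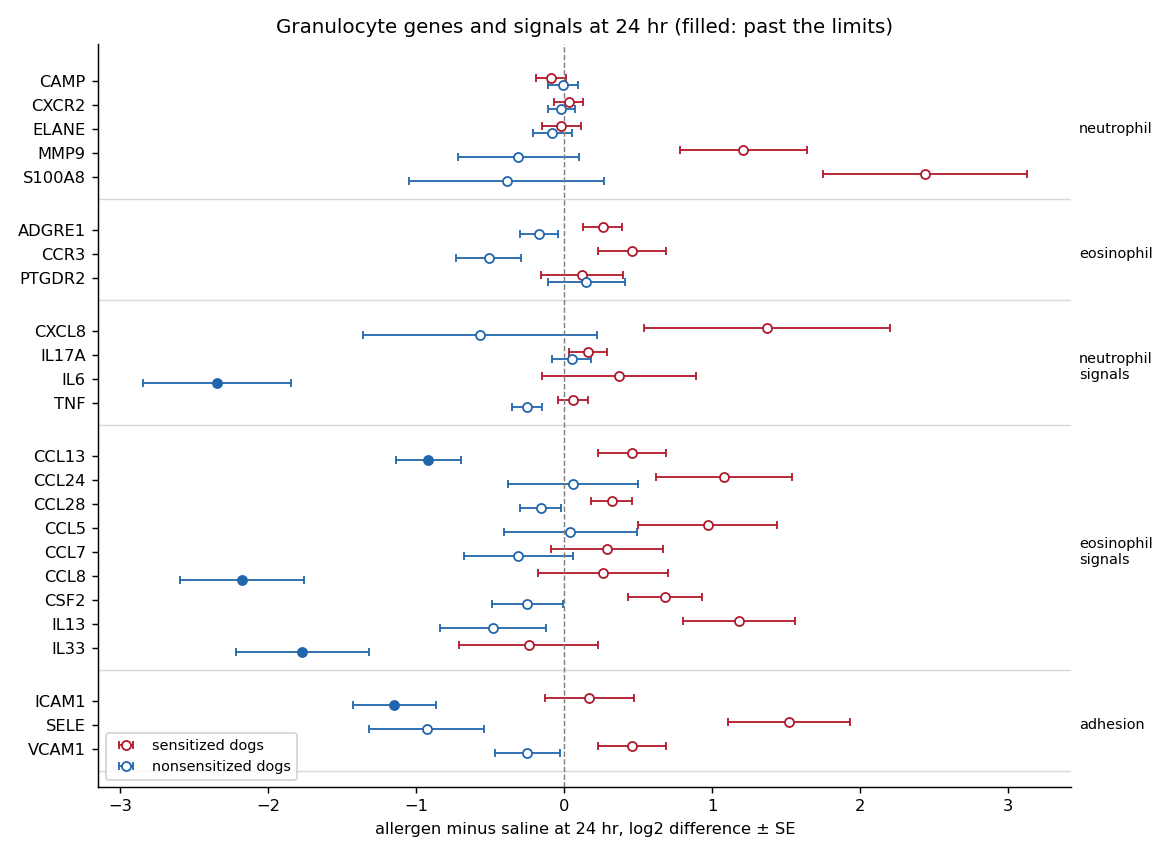
Log2 difference ± SE from limma between allergen and saline sites at 24 hr for the measured granulocyte genes, their signals and adhesion molecules, in sensitized (red) and nonsensitized dogs (blue). Filled points passed both limits; in the sensitized dogs none did, with S100A8 at 2.44, and in the nonsensitized dogs IL6, CCL13, CCL8, IL33 and ICAM1 did.

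Markers of other cell types that may hold S100A8 RNA could be followed only in part. For macrophages and monocytes, 1 of 8 markers was matched, CD163, a scavenger receptor. It was higher at 24 hr than at 6 hr at all 4 sites compared, by 1.05 ± 0.28 under allergen in the sensitized dogs (limma, adjusted p = 0.0169), where 1.96% to 9.04% of all probes were called. S100A8 was called at 3 of these 4, the exception being the allergen sites of nonsensitized dogs, where CD163 rose by 0.7 and S100A8 stood at 0.52 ± 0.66. CD163 was not called in allergen against saline at 24 hr in the sensitized dogs (0.06 ± 0.28), where S100A8 stood at 2.44. Its signal was 509 to 1340 at 24 hr allergen and 511 to 1400 at 24 hr saline sites of those dogs. For activated keratinocytes, 1 of 11 markers was matched, DEFB1, with signals of 46.7 to 79.2 and 56.7 to 114 at these sites and a difference of -0.35 ± 0.18 (adjusted p = 0.486). KRT6A, KRT16 and S100A7 were not among those matched. For T cells, 3 of 8 markers passed the filter, and CD28, a costimulatory receptor, rose under allergen in the sensitized dogs at 24 hr by 0.68 ± 0.12 (adjusted p = 0.00203), where 0.27% of all probes were called. S100A8 and CCR3 had differences of 2.44 and 0.46 in that comparison. The summed T cell signal was 159 to 236 under allergen and 122 to 188 under saline. Of 4 mast cell, 2 dendritic cell, 2 endothelial, 3 fibroblast and 4 keratinocyte markers, 0 were called in that comparison, against 0.27% of all probes. In the same dogs, the summed mast cell signal was 1860 to 2900 in untreated skin, 2630 to 4800 at 24 hr saline and 2870 to 6370 at 24 hr allergen sites. The summed dendritic cell signal was 463 to 594, 658 to 1290 and 797 to 1560 there. The part of these cells in the S100A8 and CCR3 values was not tested.

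The genes whose level was most like that of each member over the 59 arrays were found among 893 named genes. For S100A8 they were CYCS and NME1 (Pearson r = 0.86), SLC1A1 (0.85), ARG2 (0.81) and TIMP1 (0.8). For CXCR2 they were ADGRE3 (0.62), ADGRE1 and TYROBP (0.52), CASP12 (0.51) and IL18BP (0.48). For CCR3 they were CASP4 (0.6), CASP12 (0.59), CCL4, BIRC3 and GFI1 (0.58). CASP12 stands in both of the last lists. Among the members themselves r was 0.3 between S100A8 and CXCR2, 0.37 between S100A8 and CCR3, and 0.28 between CXCR2 and CCR3, so neither other member was among the 5 most like genes of any of them. These correlations are descriptions: the arrays share dogs, slides and time points, and CXCR2 and CCR3 lie near the background, where noise lowers r.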

How the data were processed

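RNA of 60 skin biopsies was measured on Agilent dog arrays with a single dye, 1 array per biopsy. The deposited values are spot intensity, which the authors read with Agilent Feature Extraction 10.7.3.1, with the background subtracted and no scaling between arrays. The precision of a value is set by the number of arrays, 6 per group and 5 at the 24 hr allergen sites of sensitized dogs.

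Outlier spots were set to missing (6048 values), and a spot was kept where 5 or more arrays of any group had it well above background (47229 of 61657). No spot was saturated on the 58 arrays with that flag. Variance stabilization was reimplemented, since the package was not installed, and tested on simulated data. Replicate spots were then averaged by probe. In R 4.3.3, limma 3.58.1 fitted 10 group means jointly and unpaired, with Benjamini-Hochberg adjustment over 45972 probes. The study's methods are unpaired too, but treat each time point on its own, which is the separate fit named among the alternatives. Exact tests were run with scipy 1.17.1 in Python 3.11.15, tables were made with pandas 2.3.3 and numpy 2.4.6, and figures with matplotlib 3.10.9. Sites of the same dog are paired by the labels: after removal of group means, arrays of the same dog correlated with a median of 0.39 (116 pairs), others with -0.03 (1450 pairs). Where a group was well above background on no array, a fold was bounded by each array's lowest usable signal.

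RefSeq symbols were found for 1080 of the 54633 identifiers. Named were the 3 genes, all matched genes of the lists, each by its brightest probe, and the 5 genes most correlated with each member (symbols of the LOC kind left out). A few matched genes are not reported here and were left out of the lists and of the candidates for likeness. The members and lists were chosen with earlier results of these data known. Alternatives tried were a fit to all 60 arrays, weighted or not, other scalings, background correction and filters, the dog, slide or scan session as a block, other limits, a separate fit per time point, and each dog left out. The scan session, and PTGDR2 without 1 dog, were added after the data were seen. Other probes of a gene could not be tried, since each gene has 1.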

Additional observations from a re-analysis of the deposited data

Results flagged for a closer look

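In S100A8, the highest array of the nonsensitized dogs at 6 hr saline sites, that of dog 2716, stood apart at 16.07, with the nearest at 13.43 and the lowest at 12.15, so that the gap took 0.67 of the range. In CXCR2, the lowest array of untreated skin of sensitized dogs, that of dog 2838, stood apart at 4.11, with the others at 4.97 to 5.2 and a gap of 0.79 of the range. This array was not well above background for CXCR2. Both exceed the limit set for a single sample far from its group, which chance passes in about 1 in 20 groups, and 30 groups were examined. Without dog 2716, allergen minus saline in S100A8 was called in the sensitized dogs at 6 hr (2.28, limma adjusted p = 0.0489) and at 24 hr (2.44, adjusted p = 0.0431).

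The mean allergen effect on S100A8 at 24 hr was higher in the sensitized than in the nonsensitized dogs by 2.94 (exact permutation p = 0.00216). For CCR3 the same difference was 0.93. It is given without a test, since CCR3 was kept among the probes only through the 24 hr allergen sites of sensitized dogs. Both values are on the variance-stabilized scale.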

How the results depend on the processing

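The S100A8 differences of sensitized dogs between allergen and saline kept their direction in all alternatives, with 1.84 to 2.58 at 6 hr and 2.21 to 2.69 at 24 hr, and the 24 hr interaction with 2.29 to 3.08. They passed the limits (limma) with the dog as a block (2.28, 2.45 and 2.84), the first 2 with an unadjusted p below 0.002 (2.28 and 2.44) and with weights on all 60 arrays (2.51 and 2.25), the 24 hr difference also with all 60 arrays unweighted (2.63), and the last 2 with a fit per time point (2.44 and 2.82). The CCR3 interaction at 24 hr was 0.89 with the dog as a block, from which no call is read, since its probe was kept only through one of the groups compared. The dog as a block changed no other call of the 3 genes except CCR3 at 24 hr allergen sites against untreated skin of sensitized dogs (0.57), and it cannot be fitted for sensitized against nonsensitized dogs.

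Calls of S100A8 from 6 hr to 24 hr were lost with the slide as a fixed or random block, with 3.25 and 2.53 under allergen and 3.32 and 2.44 under saline in sensitized dogs, and 2.39 and 1.8 under saline in nonsensitized dogs. The last was also lost with the scan session as a block (1.75) and at an unadjusted p below 0.002 (1.79). Leaving out single dogs gave 2.22 to 2.54, 1.86 to 2.58 and 1.45 to 2.09 for these 3, with 6 of 12, 7 of 12 and 9 of 12 still called. Under allergen in sensitized dogs the call was lost without each of the sensitized dogs 2838 (2.54), 2839 (2.25), 2840 (2.22), 2841 (2.32), 2853 (2.22) and 2855 (2.43), and that under saline without 2838 (2.07), 2839 (2.17), 2840 (2.22), 2841 (1.86) and 2853 (2.11). In nonsensitized dogs the call under saline was lost without 2802 (1.5), 2845 (1.9) and 2847 (1.45), and that of 24 hr allergen sites against untreated skin without 2704 (1.67), 2802 (1.66) and 2845 (1.72).

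Against untreated skin, S100A8 calls were lost at 6 hr allergen and 24 hr saline sites of sensitized dogs with the slide (1.99 and 2.83) and the scan session (2.26 and 2.07), and at 24 hr saline and allergen sites of nonsensitized dogs with the slide (2.16 and 1.68), the random slide (1.95 and 1.5) and the scan session (1.76 and 1.37), the last site also at an unadjusted p below 0.002 (1.75).

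Other differences changed sign, none of them called. For 6 hr saline against untreated skin, S100A8 gave -0.49 with the slide, -0.01 with the random slide, -0.07 with the scan session as a block and -0.02 (without dog 2839) to 0.39 without single dogs in sensitized dogs, and -0.23 with the slide in nonsensitized dogs. For CCR3, 24 hr allergen against untreated skin of nonsensitized dogs gave -0.63 and -0.5 with 75th percentile and median scaling, -0.31 with no filter, -0.48 with the slide and -0.02 with the scan session as a block. The 24 hr saline sites of sensitized dogs gave -0.28, -0.17, -0.04 and -0.25 under the first 4 of these. CCR3 from 6 hr to 24 hr in nonsensitized dogs gave -0.04 under saline with the slide and -0.27 to 0.07 under allergen without single dogs, and its 6 hr allergen effect -0.02 to 0.16, the sign turning without dog 2802 in both. For CXCR2, the 6 hr interaction gave 0.02 with normexp on spot medians (offset 50), 0.02 and 0.0 with the slide as a fixed and a random block, and -0.12 to 0.06 without single dogs. Its 24 hr interaction gave -0.0 with 75th percentile scaling and -0.01 to 0.11 without single dogs. Allergen against saline at 24 hr gave -0.01 with the scan session and -0.03 to 0.07 without single dogs in sensitized dogs, and 0.01, 0.05 and 0.02 with array weights, 75th percentile and median scaling and -0.09 to 0.03 without single dogs in nonsensitized dogs. CXCR2 from 6 hr to 24 hr under allergen in sensitized dogs gave -0.03 with the slide. The causes were not tested.

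The number of probes called for the 24 hr interaction, 447, was 702 at an unadjusted p below 0.002, 782 and 1076 with all 60 arrays without and with weights, 228 with median scaling, 235 with no filter, and 1589, 1022 and 784 with the dog, slide and scan session as a block. It ranged from 16 (without dog 2855) to 761 (without dog 2704), with 44 and 49 without dogs 2802 and 2800. The 3 calls of CCR3 were lost under many alternatives. That of 24 hr allergen sites between the groups of dogs was lost without dogs 2716 (0.62), 2802 (0.54), 2841 (0.56), 2845 (0.61), 2853 (0.49) and 2855 (0.67), with the slide as a fixed (0.73) or random block (0.63), the scan session (0.76), a fit per time point (0.63), a stricter filter (0.58), normexp (0.31) and an unadjusted p below 0.002 (0.63). That against untreated skin of sensitized dogs was lost without dogs 2839 (0.58), 2841 (0.6) and 2853 (0.53), with the slide (0.29) and the scan session (0.59), with 75th percentile (0.9), median (1.0) and quantile scaling (1.4), no filter (0.9), normexp (0.31) and an unadjusted p below 0.002 (0.64). That of 24 hr saline sites of nonsensitized dogs was lost without dog 2847 (adjusted p = 0.057), with 75th percentile and median scaling and no filter (adjusted p = 0.415, 0.28 and 0.215), with the slide as a fixed or random block and the scan session (adjusted p = 0.996, 0.0962 and 0.436), with normexp, where it stayed under 1.5-fold, and at an unadjusted p below 0.002. With the array's lowest usable signal as the limit, CCR3 was detected on 4 of the 24 hr saline arrays and 1 of the untreated arrays of nonsensitized dogs. Signal over background limits CXCR2 and CCR3: both were within a few log2 units of the lowest usable signal, so that a change of either could have been missed.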
